A study of Mus musculus with 11 samples.

Results

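A set of 10 integrin subunit genes were examined across all libraries of a mouse glioma study. They were taken as a named set, matched by symbol to the Ensembl identifiers of the counts, and all 10 of 10 were found among 50686 genes. Integrins are cell surface receptors built from an alpha and a beta subunit, which bind matrix proteins or receptors on other cells and signal through adaptors at their cytoplasmic tails. On myeloid cells the beta2 family carries adhesion to endothelium and uptake of complement-coated material, while alphaV and alpha6 integrins bind matrix proteins such as vitronectin and laminin. Microglia and tumour cells share some of these subunits, so a whole tumour reports on both.

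GL261, a mouse glioma cell line, was injected into the brain of C57BL/6 mice at 6 weeks of age, 3 weeks after tamoxifen, and tissue was collected 3 weeks after tumour initiation. The 4 groups were bulk tumours of Cx3cr1-Rheb1 Δ/Δ mice (labelled KO, n = 3) and of Rheb1 fl/fl mice (labelled WT, n = 3), and TAM-MG, the sorted tumour-associated microglia, of Rheb1 Δ/Δ (KO, n = 3) and Rheb1 fl/fl mice (WT, n = 2). Rheb1, annotated as Rheb, encodes the GTPase that activates mTOR complex 1. Exon 3 of the gene is floxed in all mice, the KO mice also carry an inducible Cre inserted at the Cx3cr1 locus, and the WT mice received tamoxifen without Cre. By the study's account, Cre acts in most TAM-MG and in part of the macrophages that come from bone marrow. TAM-MG were sorted as live CD11b+ CD45low cells into TRIzol, whereas bulk RNA was scraped off formalin-fixed, paraffin-embedded sections, and each library is 1 mouse.

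The total counts ran from 14940787 to 21991348 in bulk and from 20765767 to 29947977 in TAM-MG libraries. Counts of Rheb, which also cover the exons that Cre leaves in place, were lower in every KO library: 125.5 to 225.1 CPM (counts scaled to library size) in bulk KO against 234.6 to 348.1 CPM in bulk WT, and 67.8 to 71.2 CPM in TAM-MG KO against 86.5 to 164.3 CPM in TAM-MG WT. The adjusted p was 0.426 in bulk and 0.552 in TAM-MG (edgeR). Of all tested genes, 9.23% in bulk and 11.5% in TAM-MG were lower in KO without overlap. The microglia markers P2ry12 and Tmem119 had 1647 to 5825 CPM and 1679 to 4338 CPM in TAM-MG, against 3.56 to 63.8 CPM and 3.26 to 81.0 CPM in bulk, on the scale of all 11 libraries, and Cd3e of T cells had at most 1 count in a TAM-MG library. Lists of marker genes were also summed, scaled within each experiment. The T and NK cell sum was 8.74 to 26.4 CPM in TAM-MG, against 10.2 to 33.3 CPM in bulk KO and 48.5 to 142.4 CPM in bulk WT. The granulocyte sum was 179.2 to 346.4 CPM in TAM-MG and 1.79 to 51.9 CPM in bulk, each on its own scale. Its genes did not go together: Ly6g and Mmp9 were at 0 in all KO TAM-MG, and Ly6g, Mmp8 and Mmp9 in all WT TAM-MG. The neuron sum was 25.1 to 30.6 CPM in TAM-MG and 1449 to 3943 CPM in bulk. Bulk WT replicate 35 stood apart, with 10643 counts of Xist and 0 counts of Ddx3y, where the other 10 libraries had at most 5 Xist counts and at least 868 Ddx3y counts. The bulk differences of all 10 members are therefore also given without it. The bulk and TAM-MG counts treated exons shared by several genes differently: of 68 genes that share at least 90% of their exon bases and had at least 100 counts in every TAM-MG library, 61 (89.7%) had 0 counts in all bulk libraries, against 3 of 4615 genes (0.065%) that share none.

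The members fall into families by their partners. Itgam and Itgal encode the alpha chains CD11b and CD11a, and Itgb2 the shared beta chain CD18. Itgam lies on the plus strand of chromosome 7 of GRCm38 (128062640 to 128118491, 30 merged exons), Itgal on chromosome 7 (127296260 to 127335138, 32 exons) and Itgb2 on chromosome 10 (77530252 to 77565708, 16 exons). Itga4 encodes CD49d, which pairs with the chains of Itgb1 or Itgb7. Itga4 lies on chromosome 2 (79255426 to 79333123), Itgb1 on chromosome 8 (128685654 to 128733200) and Itgb7 on the minus strand of chromosome 15 (102215995 to 102231944). Itgav encodes the alphaV chain, which pairs with the chains of Itgb3, Itgb5, Itgb8 or Itgb1. Itgav lies on chromosome 2 (83724397 to 83806916), Itgb3 on chromosome 11 (104608000 to 104670476) and Itgb5 on chromosome 16 (33829665 to 33949338). Itga6, the alpha chain of laminin receptors, lies on chromosome 2 (71745616 to 71858416), and all members but Itgb7 are on the plus strand. Itgam shares 3450 of its 5024 exon bases with Gm49368 on the same strand, and Itga4 and Itgav share 1124 and 634 exon bases with genes on the opposite strand. The other 7 members share none.

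RefSeq's table held promoters of 6 of the 10 members, and the 3 shown are those of members whose KO and WT libraries did not overlap in CPM in bulk tumours or in TAM-MG (GRCm38.p6, 250 bases before to 50 after the gene start, 5′ to 3′ on the gene's strand). Capitals mark GAGGAA or its reverse complement TTCCTC, the purine-rich core of a site type that the myeloid factor PU.1 (Spi1) can bind.
Itgam (chr7:128062390-128062689, plus strand): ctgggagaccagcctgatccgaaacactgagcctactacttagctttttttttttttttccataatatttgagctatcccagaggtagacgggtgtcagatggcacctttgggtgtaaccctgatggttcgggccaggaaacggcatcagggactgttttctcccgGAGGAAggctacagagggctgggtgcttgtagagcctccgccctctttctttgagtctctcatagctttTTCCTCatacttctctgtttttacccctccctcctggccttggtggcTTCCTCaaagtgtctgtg
Itgav (chr2:83724147-83724446, plus strand): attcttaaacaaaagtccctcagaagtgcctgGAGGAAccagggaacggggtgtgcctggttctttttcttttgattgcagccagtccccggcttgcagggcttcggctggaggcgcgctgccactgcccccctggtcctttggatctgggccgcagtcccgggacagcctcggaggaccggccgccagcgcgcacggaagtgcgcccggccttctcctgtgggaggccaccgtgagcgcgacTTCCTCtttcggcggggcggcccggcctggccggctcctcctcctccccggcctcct
Itgb5 (chr16:33829415-33829714, plus strand): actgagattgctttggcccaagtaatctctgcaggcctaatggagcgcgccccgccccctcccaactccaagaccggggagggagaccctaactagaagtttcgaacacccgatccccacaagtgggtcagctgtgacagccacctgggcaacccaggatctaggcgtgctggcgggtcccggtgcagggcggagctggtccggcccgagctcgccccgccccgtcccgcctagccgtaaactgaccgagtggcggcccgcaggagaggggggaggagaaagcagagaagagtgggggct
Searched on both strands, GAGGAA occurred 3 times in the Itgam window, at -84 on the gene's strand and at -15 and 33 on the other, counted from the gene start. It occurred 2 times in that of Itgav and 1 time each in those of Itgb1 and Itgb7, and was absent from those of Itga4 and Itgb5. Of all 32851 promoters in the table, 28.3% held it at least 1 time.

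The first comparison asks how the integrins of the whole tumour differ when Rheb1 is deleted in Cx3cr1-expressing cells. Itgam, Itgal and Itgb2 were all lower in every KO tumour than in every WT tumour, by between 3.26- and 10.2-fold, while the subunits with the most reads, Itgb1, Itgav and Itga6, overlapped between genotypes. A gene counted as called at an adjusted p under 0.05 and at least 1.5-fold, and by the quasi-likelihood test of edgeR this held for 0 of 10 members and 0% of all 17028 tested genes. DESeq2 called 2 members (Itgam and Itgal), against 470 of all 17028 genes. The likelihood ratio test called 1 (Itgam), against 383 of 17028, and limma on TPM 0, against 1 of 12666. At an unadjusted p under 0.05, 3 of 10 members were lower and 0 higher, against 5.19% lower and 3.82% higher among all tested genes. Groups did not overlap for 4 members, all lower in KO, against 9.23% of all tested genes in that direction and 7.82% in the other.

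**Figure D1:**
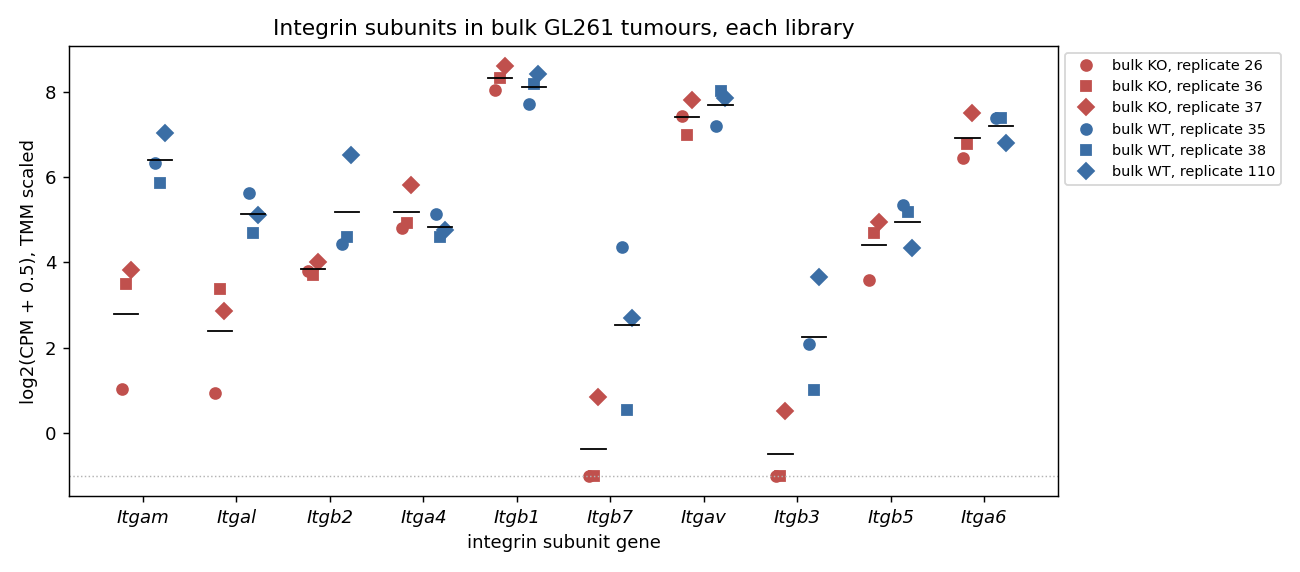
Each point is the log2(CPM + 0.5) of 1 bulk tumour library, KO in red to the left of WT in blue, with the mean of each group as a black line and the dotted line at 0 CPM. Points of Itgam, Itgal, Itgb2 and Itgb3 do not overlap between genotypes, and those of the other 6 members do.

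Itgam had 1.55, 10.8 and 13.7 CPM in KO tumours (replicates 26, 36 and 37), against 79.2, 57.4 and 130.4 CPM in WT tumours (replicates 35, 38 and 110). The highest KO tumour thus lay below the lowest WT tumour. The means were 8.67 ± 6.33 CPM in KO and 89.0 ± 37.5 CPM in WT tumours (SD, n = 3 each), and the log2 fold change was -3.35 ± 0.72 (SE, 95% interval -4.94 to -1.77; unadjusted p = 0.000716, adjusted p = 0.154, edgeR's quasi-likelihood test). CD11b is a general marker of myeloid cells, and this gene is among those that the study itself picked from these tumours, so its direction is not independent evidence. Without bulk WT replicate 35 the log2 fold change was -3.47 (adjusted p = 0.442), and over all single libraries left out in turn it ran between -3.84 and -2.86.

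Itgal, the alpha chain of the leukocyte receptor for Icam1, had 1.41, 9.84 and 6.75 CPM in KO tumours against 48.6, 25.3 and 33.8 CPM in WT tumours. The groups did not overlap, and the log2 fold change was -2.58 ± 0.78 (SE, n = 3 each; unadjusted p = 0.00709, adjusted p = 0.28, edgeR). Without bulk WT replicate 35 it was -2.34 (adjusted p = 0.589).

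Itgb2, the beta chain that both need to reach the surface, had 13.5, 12.5 and 15.6 CPM in KO tumours against 21.2, 23.7 and 90.4 CPM in WT tumours. The KO tumours lay close together and below all WT tumours, of which replicate 110 was far above the others. The log2 fold change was -1.70 ± 0.65 (SE, n = 3 each; unadjusted p = 0.0234, adjusted p = 0.45, edgeR), without bulk WT replicate 110 it was -0.71 (adjusted p = 0.898), and without bulk WT replicate 35 it was -2.08 (adjusted p = 0.509).

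Marker genes of immune cells were read in the same tumours. Ptprc, which encodes the leukocyte antigen CD45, had 15.4, 34.0 and 19.3 CPM in KO tumours against 68.4, 73.9 and 122.5 CPM in WT tumours (log2 fold change -1.94 ± 0.45, SE; adjusted p = 0.185, edgeR; -2.13 without WT replicate 35). DESeq2 called Ptprc (adjusted p = 0.00365), as did the likelihood ratio test (adjusted p = 0.00767), and over all alternatives the adjusted p reached 0.872. In TPM its groups overlapped, at 0.414, 3.42 and 0 TPM in KO against 4.91, 0 and 3.68 TPM in WT tumours. Of the tested markers, 10 of 12 for microglia, 9 of 10 for monocytes and macrophages, 8 of 8 for T and NK cells and 3 of 3 for granulocytes had a negative fold change, against 49.8% of all tested genes. EdgeR called 0 of these markers and 0% of all 17028 tested genes. DESeq2 and the likelihood ratio test each called P2ry13, Cd44, Lyz2, Cd2 and Csf3r lower, against 470 and 383 of all 17028 genes. Limma called 0 of these markers, against 1 of 12666 genes. The summed levels overlapped between genotypes for microglia and for monocytes and did not for T and NK cells and for granulocytes. The summed microglia list ran from 936 to 1504 CPM in KO and from 1160 to 1558 CPM in WT tumours, and the monocyte list from 1714 to 3051 CPM in KO and from 2587 to 3667 CPM in WT tumours. The T and NK list ran from 10.2 to 33.3 CPM in KO and from 48.5 to 142.4 CPM in WT tumours, with Cd2, Klrb1c and Ncr1 at 0 in all KO tumours. The study instead reported more CD4 and CD8 T cells in KO tumours, by flow cytometry and by staining of tissue. By flow cytometry it also found more macrophages from bone marrow and fewer TAM-MG. Its estimate of cell fractions from bulk TPM gave more of both T cell types as well. These are cell fractions, not RNA levels of single genes. The granulocyte list ran from 1.79 to 12.5 CPM in KO and from 22.1 to 51.9 CPM in WT tumours, with S100a9, Ly6g, Mmp8, Camp and Ltf at 0 in all KO and Ly6g and Camp at 0 in all WT tumours. Cx3cr1, the locus that carries Cre in KO mice, had 7, 6 and 513 counts in KO tumours against 1100, 1944 and 2230 counts in WT tumours. Outside the immune lists, 2 of 10 neuron markers and 0 of 9 mitochondrial genome transcripts had a negative fold change. For astrocytes it was 5 of 8, for oligodendrocytes 6 of 8 and for endothelial cells 5 of 10. The neuron sum overlapped, at 1449 to 3943 CPM in KO and 2164 to 3018 CPM in WT tumours. In bulk tissue, fewer cells of a type and less RNA per cell cannot be told apart. The part of all these cell types in the integrin values was not tested.

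Relative to the leukocyte gene Ptprc in the same library, a ratio chosen after the values were seen, Itgam stood at 0.1, 0.318 and 0.707 counts per Ptprc count in KO tumours against 1.16, 0.777 and 1.06 in WT tumours. These do not overlap. The same ratio for Itgb2 was 0.872, 0.367 and 0.805 in KO tumours against 0.31, 0.321 and 0.738 in WT tumours, so the 2 groups overlapped and the median was higher in KO. Itgal overlapped too, at 0.0913, 0.289 and 0.35 in KO tumours against 0.711, 0.343 and 0.276 in WT tumours.

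The rare beta chains Itgb3 and Itgb7 rested on few reads. Itgb3, the beta chain of the vitronectin receptor, had 0, 0 and 18 counts in KO tumours against 67, 34 and 194 counts in WT tumours. The groups did not overlap (log2 fold change -4.15 ± 1.99, SE, n = 3 each; unadjusted p = 0.0618, adjusted p = 0.583, edgeR). Itgb7 had 0, 0 and 25 counts in KO tumours against 358, 21 and 95 counts in WT tumours, and WT replicate 38 lay below KO replicate 37 in counts and in CPM (log2 fold change -4.31 ± 2.04, SE; adjusted p = 0.575, edgeR). In both genes KO replicate 37 held all counts of its group. Without WT replicate 35 the log2 fold change was -4.42 for Itgb3 (adjusted p = 0.704) and -2.98 for Itgb7 (adjusted p = 0.837). The summed platelet list, which bears on Itgb3, ran from 0.703 to 9.47 CPM in KO and from 0.719 to 11.7 CPM in WT tumours.

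The subunits with the most reads in the tumours, and Itga4 and Itgb5, overlapped between genotypes. Itgb1, the beta chain with the most partners, had 261.6, 321 and 385 CPM in KO tumours against 208.4, 289 and 342 CPM in WT tumours (log2 fold change 0.20, 95% interval -0.46 to 0.87; adjusted p = 0.89, edgeR, n = 3 each). Itgav had 172.2, 125.5 and 224.3 CPM in KO tumours against 146.6, 257.1 and 232.0 CPM in WT tumours (-0.28, -1.02 to 0.45; adjusted p = 0.859). Itga6 had 87.2, 109.0 and 181.1 CPM in KO tumours against 167.3, 167.6 and 110.9 CPM in WT tumours (-0.24, -1.02 to 0.54; adjusted p = 0.89). Itga4 had 27.4, 30.0 and 55.9 CPM in KO tumours against 34.5, 23.6 and 26.7 CPM in WT tumours (0.42, -0.66 to 1.5; adjusted p = 0.859), and Itgb5 had 11.6, 25.4 and 30.3 CPM in KO tumours against 39.8, 35.9 and 19.8 CPM in WT tumours (-0.50, -1.77 to 0.76; adjusted p = 0.852). The intervals of all 5 include changes of over 1.5-fold in at least 1 direction. Without WT replicate 35 the log2 fold changes were 0.0016 for Itgb1, -0.52 for Itgav, -0.17 for Itga6, 0.56 for Itga4 and -0.34 for Itgb5, with adjusted p of 0.806 or more.

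In TPM, which are scaled by length, the bulk values cover 12719 genes and 8 of the members. Itgam had 1.12, 3.25 and 2.85 TPM in KO tumours against 8.43, 10.2 and 18.5 TPM in WT tumours, again without overlap, as the only member to do so, against 10.1% of 12666 genes in that direction and 6.26% in the other (difference of mean log2(TPM + 1) -1.97, exact two-sided permutation p = 0.1, the smallest that 3 against 3 can give, and 0.72 adjusted over 18 tests). The other 2 beta2 members overlapped in TPM through WT replicate 35, where Itgal was listed at 0 TPM with 875 counts and Itgb2 at 1.87 TPM with 381 counts. Itgal had 0.0793, 1.51 and 1.09 TPM in KO tumours and 5.80 and 8.65 TPM in WT replicates 38 and 110. Itgb5 was listed at 0.0003 TPM in KO replicate 26 with 164 counts, so counts and TPM differ widely for single libraries.

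The second comparison asks what deletion of Rheb1 does within sorted TAM-MG. Itgav and Itgb5 were higher in all 3 KO libraries than in both WT libraries, by 2.89- and 2.06-fold, while Itgam, Itgal and Itgb2 overlapped between genotypes. These were the only members of the 10 without overlap in CPM. Among all tested genes, 14.6% were higher in KO without overlap and 11.5% lower, so such a separation was common. By edgeR 0 of 10 members and 0% of all 14872 tested genes were called. DESeq2 called 1 member (Itgb5), against 473 of 14872 genes, and the likelihood ratio test 0, against 245 of 14872. Limma called 0 members and 0 of 12223 genes. At an unadjusted p under 0.05, 3 members (Itgav, Itgb5 and Itgb7) were higher and 0 lower, against 5.47% higher and 2.3% lower among all tested genes.

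**Figure D2:**
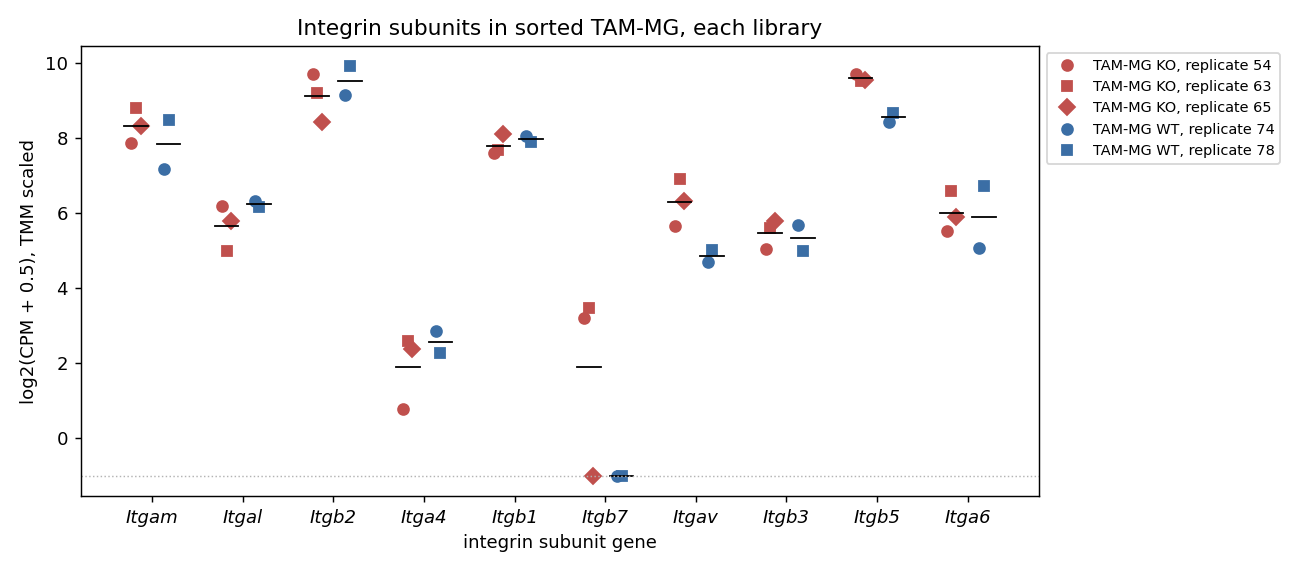
Each point is the log2(CPM + 0.5) of 1 TAM-MG library, KO in red to the left of WT in blue, with the mean of each group as a black line and the dotted line at 0 CPM. Itgav and Itgb5 do not overlap between genotypes, and Itgb7 has reads in 2 KO libraries only.

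Itgav had 49.7, 120.9 and 79.2 CPM in KO TAM-MG (replicates 54, 63 and 65) against 25.5 and 32.1 CPM in WT TAM-MG (replicates 74 and 78). The lowest KO library lay above the highest WT library. The means were 83.3 ± 35.8 CPM in KO (SD, n = 3) and 28.8 ± 4.63 CPM in WT (SD, n = 2), and the log2 fold change was 1.53 ± 0.47 (SE; unadjusted p = 0.0176, adjusted p = 0.506, edgeR).

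Itgb5, a partner chain of alphaV in a vitronectin receptor that microglia are known to express, had 842.1, 735.4 and 752.5 CPM in KO TAM-MG against 347.7 and 406.0 CPM in WT TAM-MG. KO libraries lay close together, well above the WT libraries. The means were 776.7 ± 57.3 CPM in KO (SD, n = 3) and 376.8 ± 41.3 CPM in WT (SD, n = 2), and the log2 fold change was 1.04 ± 0.25 (SE; unadjusted p = 0.00551, adjusted p = 0.502, edgeR). DESeq2 called Itgb5 (adjusted p = 0.000506). Groups did not overlap in the higher direction for 14.6% of all tested genes and in the lower direction for 11.5%.

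The 2 genes differed in the same way in TPM. Itgb5 had 417.5, 402.1 and 347.8 TPM in KO against 173.2 and 172.6 TPM in WT TAM-MG (difference of mean log2(TPM + 1) 1.16, exact two-sided permutation p = 0.1, the smallest that 3 against 2 can give). Itgav had 20.6, 51.5 and 53.0 TPM in KO against 14.7 and 9.79 TPM in WT TAM-MG (1.60, exact permutation p = 0.2), and both adjusted to 0.72 over 18 tests. With Itgb7 (3.83, 5.33 and 0.00911 TPM in KO against 0 and 0 TPM in WT), 3 members were higher without overlap in TPM, against 17.3% of 12223 genes, and 0 were lower, against 9.22%. When all libraries were set to the same mean log2 CPM, Itgav and Itgb5 were higher by 1.05 and 0.56 (log2), with unadjusted p = 0.0649 and 0.0574 by edgeR. That scaling put the median of all genes at -0.41, against 0.08 under TMM, and the share of lower genes among those at an unadjusted p under 0.05 at 73.6% against 29.6%.

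Itgb7 had 196, 277 and 0 counts in KO TAM-MG against 0 and 0 counts in WT TAM-MG, so KO replicate 65 lay with the WT libraries. With a floor of 3 counts over the WT group, the KO mean of 6.46 CPM was at least 111-fold higher, and this bound ran between 41.7 and 166 as single libraries were left out. The bound takes no account of the spread between mice. Itgb3, a further partner chain of alphaV, overlapped at 32.5, 47.8 and 55.5 CPM in KO against 51.1 and 31.1 CPM in WT TAM-MG (log2 fold change 0.14, 95% interval -0.91 to 1.19; adjusted p = 0.986, edgeR).

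The 3 beta2 subunits among the members overlapped in TAM-MG. Itgam had 232.8, 445.2 and 321.1 CPM in KO against 145.0 and 361.4 CPM in WT TAM-MG (log2 fold change 0.40, 95% interval -0.78 to 1.58; adjusted p = 0.934, edgeR), and cells were sorted on its protein. Its sign turned without WT replicate 74 (-0.10). Itgal had 73.3, 31.3 and 55.1 CPM in KO against 80.3 and 71.9 CPM in WT TAM-MG (-0.51, -1.55 to 0.52; adjusted p = 0.843). Itgb2 had 835.1, 591.2 and 347.7 CPM in KO against 567.2 and 965.7 CPM in WT TAM-MG (-0.37, -1.46 to 0.71; adjusted p = 0.929).

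Itgb1 had 192.8, 203.9 and 278.3 CPM in KO against 264.5 and 237.3 CPM in WT TAM-MG (-0.16, -0.83 to 0.51; adjusted p = 0.965). Itga4, whose product was used in the study's flow cytometry to mark macrophages from bone marrow, had 1.20, 5.49 and 4.74 CPM in KO against 6.77 and 4.34 CPM in WT TAM-MG (-0.54, -3.55 to 2.47; adjusted p = 0.98). Itga6 had 46.0, 95.5 and 59.2 CPM in KO against 33.3 and 105.2 CPM in WT TAM-MG (-0.05, -1.47 to 1.37; adjusted p = 0.996). Its 2 WT libraries differed more than the group means did. Beside these values, all 12 microglia markers had a positive fold change in TAM-MG (median 0.47, log2, against 0.08 for all genes). Of all tested genes, 46.5% had a negative one. The microglia sum overlapped, from 24950 to 36360 CPM in KO and from 21240 to 26120 CPM in WT TAM-MG. Negative fold changes were found for 8 of 10 monocyte and macrophage, 4 of 6 T and NK cell, 3 of 7 granulocyte and 5 of 7 oligodendrocyte markers. The part of these cell types in the integrin values was not tested.

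**Figure D3:**
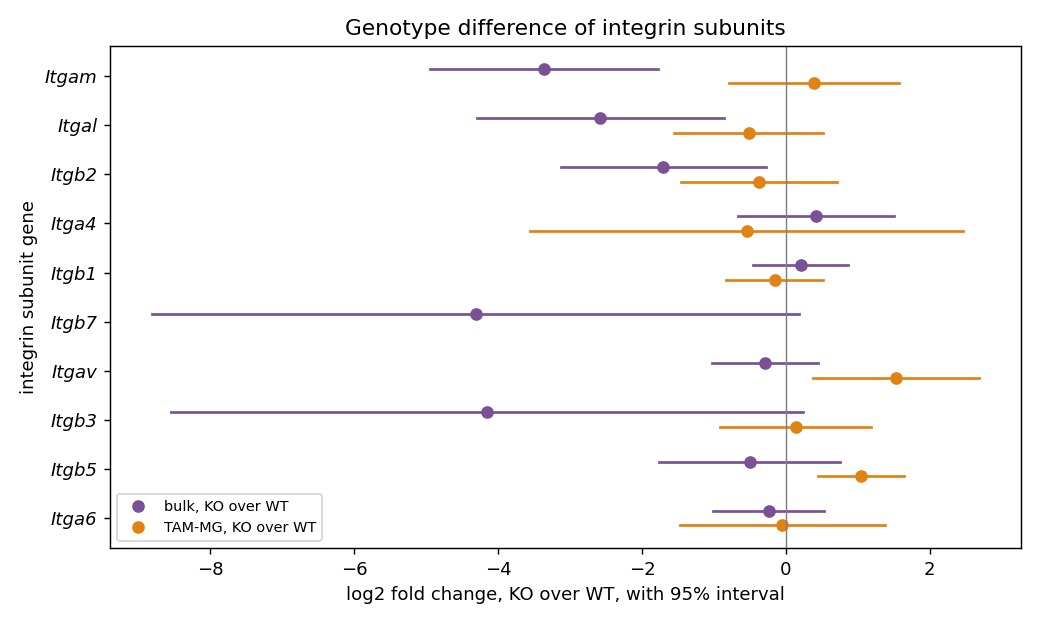
Points are log2 fold changes of KO over WT from edgeR, with 95% intervals as lines, in bulk tumours (purple) and TAM-MG (orange), and the value of Itgb7 in TAM-MG is not drawn because WT held no counts. Intervals of Itgam, Itgal and Itgb2 lie below 0 in bulk tumours, and those of Itgav and Itgb5 lie above 0 in TAM-MG.

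A fit of genotype by experiment over the 11 libraries asked whether the KO difference in TAM-MG differs from that in bulk. It called 0 of 10 members, against 0.225% of 21342 genes (0.197% with a positive and 0.0281% with a negative difference, edgeR). Itgam had the smallest p of the members, with a difference of TAM-MG minus bulk of 3.78 ± 1.02 (log2, SE; unadjusted p = 0.00333, adjusted p = 0.218, edgeR). At an unadjusted p under 0.05 were also Itgav (1.86, adjusted p = 0.29), Itgb5 (1.58, adjusted p = 0.328), Itgb3 (4.30, adjusted p = 0.388), Itgal (2.10, adjusted p = 0.4) and Itgb7 (adjusted p = 0.295), so that 6 of 10 members were in the positive direction, against 9.3% of all tested genes, and 0 in the negative direction, against 2.93%. For Itgb2 the difference was 1.36 (unadjusted p = 0.123), and for Itga4, Itgb1 and Itga6 the unadjusted p lay between 0.401 and 0.769. Ptprc had a difference of 2.23 (adjusted p = 0.213).

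The third comparison sets the level of each subunit in TAM-MG against that in whole tumours. The sort, the RNA source and the tissue differ together here and cannot be told apart. TAM-MG held more Itgb2, Itgb5, Itgb3, Itgal and Itgam and less Itga4 and Itgav than bulk tumours, and Itgb1, Itga6 and Itgb7 were not called. Higher calls were made for 5 of 10 members and lower calls for 2 of 10, against 20.5% and 32.4% (together 52.9%) of 21342 tested genes. The 5 include Itgam, the sort marker, and Itgb2, whose chain CD11b needs to reach the surface. The gate thus bears on both. Groups did not overlap for the 5 higher members, against 14.6% of all tested genes, and for Itga4 alone among those lower, against 20.2%. The median of all genes was itself shifted by -0.89 (log2) under TMM, by -1.06 with DESeq2's size factors and by -1.45 by library size alone.

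**Figure D4:**
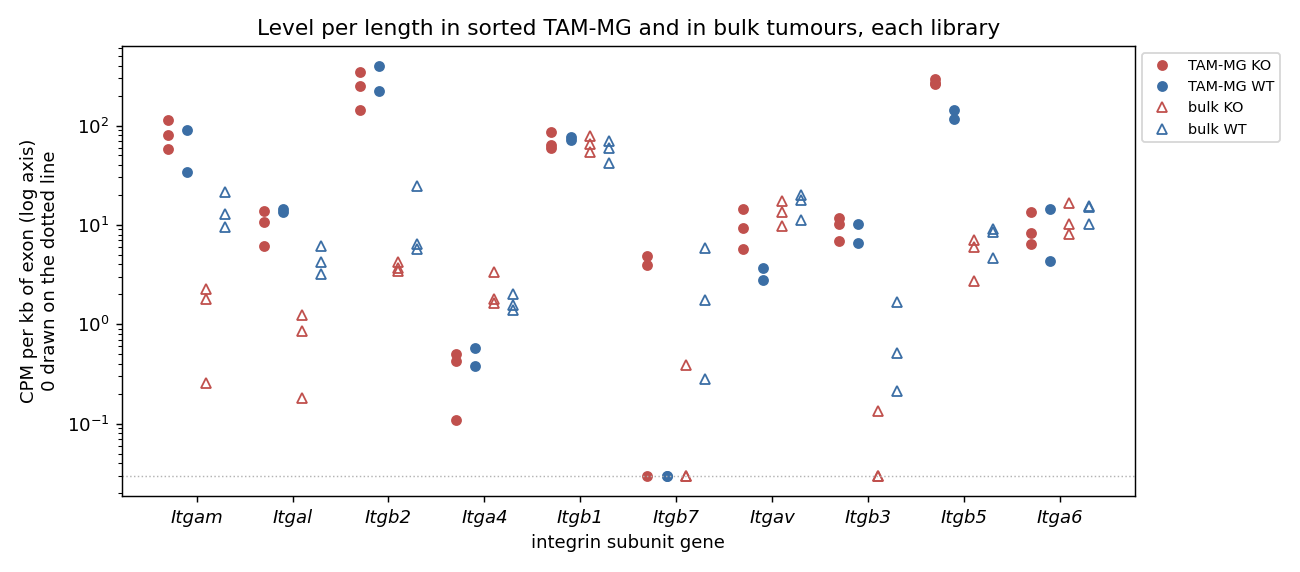
Each point is the CPM per kb of exon of 1 library on a log axis, with TAM-MG as filled circles left of bulk tumours as open triangles, KO in red and WT in blue, and values of 0 on the dotted line. Itgb2 and Itgb5 are at 116 CPM per kb or more in every TAM-MG library and at 24.4 or less in every bulk library, and Itga4 is lower in every TAM-MG than in every bulk library.

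Itgb2 ran from 437.3 to 1198 CPM in TAM-MG and from 10.4 to 74.6 CPM in bulk tumours (log2 fold change 5.33 ± 0.46, SE; adjusted p = 9.16e-06, edgeR, n = 5 and 6), which is 6.22 above the median gene. Itgb5 ran from 412.0 to 1052 CPM in TAM-MG and from 9.73 to 32.6 CPM in bulk tumours (4.91 ± 0.32, SE; adjusted p = 1.62e-06), 5.81 above the median gene. Both kept apart without overlap. Because a sort on surface CD11b also selects for the chain of Itgb2, the difference of Itgb2 is a description only.

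Itgb3 ran from 38.6 to 69.8 CPM in TAM-MG and from 0 to 9.99 CPM in bulk tumours (5.53 ± 0.99, SE; adjusted p = 0.00104), and Itgal from 39.93 to 95.1 CPM in TAM-MG and from 1.19 to 39.89 CPM in bulk tumours (2.69 ± 0.48, SE; adjusted p = 0.000966). In WT libraries alone neither was called (Itgb3 3.38, adjusted p = 0.0725; Itgal 1.64, adjusted p = 0.091). Itgam ran from 171.9 to 567.4 CPM in TAM-MG and from 1.30 to 107.6 CPM in bulk tumours, and as the sort marker it is given without a test.

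Itga4 ran from 1.505 to 8.02 CPM in TAM-MG and from 19.7 to 46.5 CPM in bulk tumours (-2.25 ± 0.57, SE; adjusted p = 0.00723), without overlap, and -1.36 relative to the median gene. In WT libraries alone it was not called (-1.80, adjusted p = 0.122). Itgav ran from 30.3 to 154.1 CPM in TAM-MG and from 105.1 to 214.3 CPM in bulk tumours (-1.40 ± 0.31, SE; adjusted p = 0.00374), overlapping, and -0.50 relative to the median gene. By genotype the difference was -2.32 among WT libraries (adjusted p = 0.00599) and -0.47 among KO libraries (adjusted p = 0.37). For Itga4, Itgav and Itgam, the part of the shared exons in these differences was not tested. Among genes without shared exons, the calls of Itgb2, Itgb5, Itgb3 and Itgal held, with log2 fold changes from 2.72 to 5.56.

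Itgb1 ran from 241.0 to 350.0 CPM in TAM-MG and from 170.9 to 320.2 CPM in bulk tumours (0.23, 95% interval -0.24 to 0.71; adjusted p = 0.385), its sign turned by library size alone (-0.33), and it was 1.13 above the median gene. Itga6 ran from 39.4 to 130.6 CPM in TAM-MG and from 73.4 to 150.6 CPM in bulk tumours (-0.42, -1.22 to 0.38; adjusted p = 0.347). Itga6 was called lower by library size alone (-1.03, adjusted p = 0.0294) and without TAM-MG WT replicate 78 (-1.12, adjusted p = 0.0378). Relative to the median gene it was 0.47 higher under TMM and 0.42 higher by library size. Itgb7 had 0 counts in 3 of 5 TAM-MG libraries and in 2 of 6 bulk libraries (adjusted p = 0.222).

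Levels of different subunits were compared per length of exon. In KO TAM-MG the order was led by Itgb5 (264 to 296 CPM per kb) and Itgb2 (143 to 342), followed by Itgam (57.9 to 113) and Itgb1 (59.1 to 85.8). The ranges of Itgb5 and Itgb2 overlap, as do those of Itgam and Itgb1. In WT TAM-MG Itgb2 (220 and 393) and Itgb5 (116 and 142) came first and did not overlap, followed by Itgb1 (72.1 and 76.8) and Itgam (34.2 and 89.2). Itgal, Itgav, Itgb3 and Itga6 lay between 2.82 and 14.5 CPM per kb in all TAM-MG libraries, Itga4 between 0.108 and 0.574, and Itgb7 between 0 and 4.89.

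In bulk tumours Itgb1 led in both genotypes (54 to 78.5 CPM per kb in KO and 41.9 to 69.2 in WT), above Itgav (9.78 to 17.4 in KO and 11.2 to 19.9 in WT) and Itga6 (8.13 to 16.7 in KO and 10.1 to 15.5 in WT), which overlap. Itgam ran from 0.26 to 2.26 CPM per kb in KO and from 9.52 to 21.4 in WT tumours, where it overlapped with Itgav, Itga6 and Itgb2, and 3450 of its exon bases are shared with another gene. In TPM, Itgav led instead, with 146.6 to 196.4 TPM in KO and 163.4 to 228.4 TPM in WT tumours, against 46.9 to 64.9 TPM and 40.7 to 60.1 TPM for Itgb1. The 2 per-length scales thus disagree on the leading subunit of the tumour, while both place Itgb5 and Itgb2 first in TAM-MG.

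Ratios of alpha to beta chain describe the balance within a library, as transcripts only. Itgam to Itgb2 was 0.07, 0.526 and 0.534 in KO tumours against 2.27, 1.47 and 0.876 in WT tumours (CPM per kb), without overlap, but in TPM it was 0.212, 0.719 and 0.538 in KO against 4.51, 1.13 and 0.472 in WT tumours, with overlap. In TAM-MG the same ratio overlapped, at 0.169, 0.457 and 0.561 in KO against 0.155 and 0.227 in WT (CPM per kb), but in TPM it did not, at 0.487, 0.744 and 0.911 in KO against 0.438 and 0.434 in WT. Itgav to Itgb5 was 0.0195, 0.0544 and 0.0348 in KO against 0.0243 and 0.0261 in WT TAM-MG (CPM per kb), so transcripts of the beta chain exceeded those of alphaV in every TAM-MG library, whereas in bulk tumours the ratio was between 1.22 and 4.93 in CPM per kb. In TPM it was between 0.0494 and 0.152 in TAM-MG and between 17.1 and 52.1 in 5 of 6 bulk tumours, and KO replicate 26 is left out there because Itgb5 was listed near 0 TPM.

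Among 17 other integrin subunits, 14 were tested in bulk tumours and 8 in TAM-MG, with 0 called by edgeR and 1 lower and 0 higher at an unadjusted p under 0.05 in each, against 5.19% lower of all tested genes in bulk and 2.3% in TAM-MG. Limma called 0 in both. The median log2 fold change was -0.48 in bulk and 0.82 in TAM-MG, against 0.00341 and 0.08 over all tested genes. In TAM-MG the lower gene was Itgax, the CD11c chain that also pairs with Itgb2. Itgax had 18.2, 37.4 and 21.7 CPM in KO against 132.2 and 79.1 CPM in WT TAM-MG, without overlap (log2 fold change -2.03 ± 0.45, SE; unadjusted p = 0.00411, adjusted p = 0.502, edgeR). DESeq2 called it (adjusted p = 0.00801), as did the likelihood ratio test (adjusted p = 0.0183). In bulk tumours Itgax overlapped (21.1, 3.77 and 4.82 CPM in KO against 9.34, 25.9 and 20.4 CPM in WT; adjusted p = 0.824).

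The lower gene in bulk was Itga8, an RGD-binding alpha chain, with 2.25, 8.44 and 2.67 CPM in KO against 7.45, 34.7 and 43.6 CPM in WT tumours, overlapping through WT replicate 35 (-2.68 ± 0.91, SE; adjusted p = 0.37, edgeR). DESeq2 called it (adjusted p = 0.0457) and the likelihood ratio test did not. In TAM-MG, 4 of 5 libraries held no counts of it, and WT replicate 78 held 151. Itga1, a collagen-binding chain, ran at 11.1 to 25.2 CPM in KO against 27.6 to 37.6 CPM in WT tumours without overlap (adjusted p = 0.697), and Itga5, the fibronectin receptor chain, at 29.5 to 40.6 CPM in KO against 11.9 to 29.6 CPM in WT tumours (adjusted p = 0.745). In TAM-MG, Itga9 had 12.04, 71.5 and 32.7 CPM in KO against 15.3 and 8.53 CPM in WT (adjusted p = 0.608), and Itga3 had 96, 0 and 16 counts in KO and 0 in both WT libraries (at least 26.3-fold higher, with a floor of 3 counts over the WT group, and between 5.43 and 40.9 as single libraries were left out, the lowest without KO replicate 54).

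Of the remaining partner chains, Itgb8, which with alphaV activates latent TGF-beta, was lower in TAM-MG without overlap, with 0 to 9.98 CPM in TAM-MG against 54.3 to 162.0 CPM in bulk (log2 fold change -5.35 ± 1.03, SE; adjusted p = 0.00159, edgeR). It was not called among WT libraries alone (-3.91, adjusted p = 0.0586) or by limma on TPM (-1.33, adjusted p = 0.117). It overlapped between genotypes, with 73.6 to 192.4 CPM in KO against 65.8 to 119.8 CPM in WT tumours (adjusted p = 0.771). Itgae, the CD103 chain that pairs with Itgb7, had 0 to 77 counts in KO against 27 to 191 counts in WT tumours (adjusted p = 0.944). Itgad, a further partner of Itgb2, had 6, 15 and 31 counts in KO against 0 in all WT tumours, and 0 in all KO against 1 and 4 counts in WT TAM-MG, and passed the filter in neither experiment.

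Of 30 adaptors and activators, 28 were tested in each experiment and edgeR called 0. In bulk tumours DESeq2 and the likelihood ratio test each called 1 (Fgr), against 470 and 383 of all 17028 genes. In TAM-MG DESeq2 called 2 (Tln2 and Syk) and the likelihood ratio test 1 (Tln2), against 473 and 245 of all 14872 genes. Limma called 0 in both. In bulk tumours 2 were lower and 0 higher at an unadjusted p under 0.05 (median log2 fold change -0.12), against 5.19% and 3.82% of all tested genes. In TAM-MG 2 were higher and 1 lower (median 0.58), against 5.47% and 2.3%. The lower genes in bulk were the Src family kinases Fgr and Lyn, which act downstream of beta2 integrins in myeloid cells. Fgr had 1, 0 and 0 counts in KO against 66, 204 and 249 counts in WT tumours, a ratio of KO to WT of 0.00222 (95% exact counting interval 5.6e-05 to 0.0124; adjusted p = 0.171, edgeR). Lyn had 22.5, 10.2 and 31.5 CPM in KO against 51.8, 53.5 and 84.7 CPM in WT tumours (-1.56 ± 0.51, SE; adjusted p = 0.338).

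In TAM-MG, Syk, the kinase coupled to beta2 integrins and Fc receptors, had 67.2, 85.5 and 98.5 CPM in KO against 38.7 and 31.7 CPM in WT (1.25 ± 0.33, SE; adjusted p = 0.502, edgeR). Tln2, a talin that activates integrins through the beta tail, had 96.5, 68.7 and 46.2 CPM in KO against 7.54 and 18.7 CPM in WT TAM-MG (2.43 ± 0.59, SE; adjusted p = 0.502). Tln2 was also higher without overlap in bulk tumours (46.4 to 68.2 CPM in KO against 21.0 to 36.9 CPM in WT; adjusted p = 0.559), but in bulk TPM the groups overlapped (2.64 to 11.99 TPM in KO against 0 to 40.9 TPM in WT). Rasgrp2, the exchange factor for Rap1 on the way to integrin activation, had 0, 3 and 0 counts in KO against 127 and 92 counts in WT TAM-MG, a ratio of 0.00966 (95% exact counting interval 0.00198 to 0.0286; adjusted p = 0.534, edgeR). In bulk tumours it had 301, 196 and 358 counts in KO against 24, 65 and 142 counts in WT, without overlap, but in TPM the groups overlapped (0.974 to 4.03 TPM in KO against 0 to 3.90 TPM in WT).

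Of 34 ligands, 28 were tested in bulk tumours and 23 in TAM-MG, and edgeR called 0. In bulk tumours the likelihood ratio test called 2 (Fn1 and Icam2) and DESeq2 1 (Fn1), against 383 and 470 of all 17028 genes. In TAM-MG DESeq2 called 1 (Jam3) and the likelihood ratio test 0, against 473 and 245 of all 14872 genes. Limma called 0 in both. In bulk tumours 5 were lower and 0 higher at an unadjusted p under 0.05 (median log2 fold change -0.32), against 5.19% and 3.82% of all tested genes. In TAM-MG 1 was higher and 0 lower (median 0.14), against 5.47% and 2.3%. Fn1, fibronectin, had 134.5, 72.4 and 105.3 CPM in KO against 335.6, 263.5 and 618.0 CPM in WT tumours (-1.96 ± 0.39, SE; adjusted p = 0.154, edgeR; -2.11 without WT replicate 35). By DESeq2 its adjusted p was 8.26e-05 and by the likelihood ratio test 0.000952. Icam2, a ligand of the CD11a receptor, had 0 counts in all KO against 94, 30 and 32 counts in WT tumours, at least 45.2-fold lower in KO with a floor of 3 counts over the KO group (adjusted p = 0.206, edgeR). This bound ran between 26.4 and 60.4 as single libraries were left out, the lowest without WT replicate 35. Spp1, osteopontin, had 90.1, 37.7 and 159.8 CPM in KO against 1228, 87.0 and 135.1 CPM in WT tumours (-2.33 ± 0.89, SE; adjusted p = 0.455), and without WT replicate 35 the log2 fold change was -0.24.

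In TAM-MG, Jam3, a junction protein known in human cells to bind the CD11b receptor, had 373, 680 and 36 counts in KO against 11 and 0 counts in WT (6.33 ± 2.25, SE; adjusted p = 0.552, edgeR). Vcam1, the ligand of the alpha4 chain with Itgb1, had 53.4, 80.4 and 72.6 CPM in KO against 103.8 and 104.4 CPM in WT TAM-MG (adjusted p = 0.601), and 20.4, 61.04 and 37.6 CPM in KO against 63.7, 61.7 and 137.0 CPM in WT tumours (adjusted p = 0.522), lower in KO without overlap in both experiments in CPM, while in TPM the TAM-MG groups overlapped (19.9 to 26.1 TPM in KO against 24.7 and 40.5 TPM in WT). Cdh1, E-cadherin, which binds the receptor of Itgae and Itgb7, had 0, 114 and 51 counts in KO against 0 in both WT TAM-MG libraries (at least 38.8-fold higher, between 14.6 and 56 as single libraries were left out, the lowest without WT replicate 74).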

How the data were processed

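RNA-seq of bulk GL261 tumours and sorted TAM-MG was read with SmartSeq2 and NexteraXT libraries, sequenced as paired ends. The deposited counts are whole-number read counts per Ensembl gene that the authors made with STAR, and the deposited TPM are values that the authors made with Salmon and summed to genes, both on GRCm38 (tool versions are not given in the sources used here). The TPM of the bulk libraries cover 12719 genes. Symbols were matched to 50376 of 50686 identifiers (99.4%). Coordinates and shared exons come from a GENCODE annotation of GRCm38 later than the one used for counting.

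Counts were tested with the quasi-likelihood test of edgeR 4.0.16 in R 4.3.3, after TMM scaling and filterByExpr (minimum count 10), with Benjamini-Hochberg adjustment over all tested genes and a minimum fold of 1.5. CPM were TMM scaled within bulk, within TAM-MG or, where both are compared, over all 11 libraries. The alternatives were DESeq2 1.42.0, limma 3.58.1 on log2(TPM + 1) or log2(TPM + 0.1), the likelihood ratio test, other scalings and filters, and each library left out. TPM of members were tested by exact permutation. SE are the log2 fold change over the square root of F. Each library is 1 mouse by its label, and depth limits genes such as Itgb3 and Itgb7 with few counts. Counting intervals cover counting error only.

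The scripts were tested on simulated data with 200 changed genes. Of simulated 4-fold changes, edgeR called 32% in bulk, 14% in TAM-MG, 18% in TAM-MG against bulk and 0% for the interaction. Of 2-fold changes it called 0%, 2%, 0% and 0%. A gene that was not called may therefore still differ. In the data, TAM-MG against bulk called 11283 genes, far more than the 200 changed here. The simulated rates for that comparison thus do not describe it. False calls numbered 0, 5, 1 and 0. The members, lists and tests were chosen with earlier results of these data known. Beyond members, the text names the 3 genes of each list with the smallest p per experiment, partner chains of members, and, as checks, Rheb, Ptprc and single markers.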

Additional observations from a re-analysis of the deposited data

Results flagged for a closer look

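The genotype difference of the kinase Fgr differed between TAM-MG and bulk tumours, by 9.06 (log2, TAM-MG minus bulk; adjusted p = 0.047 in the edgeR fit over all libraries). Every KO tumour lay below every WT tumour, while TAM-MG had 41.4, 59.0 and 22.8 CPM in KO against 18.5 and 33.9 CPM in WT, which overlap. The adjusted p ran between 0.0225 and 0.139 over the alternatives and was 0.0591 with DESeq2's size factors, and it was above 0.05 in 9 of the 11 fits without 1 library. For 3 other genes, every KO library lay on opposite sides of the WT libraries in the 2 experiments by counts, and the test of the difference did not pass the threshold. Fgr was named for its small p in bulk tumours, and Rasgrp2 and Jam3 for theirs in TAM-MG. Their separation there thus follows in part from that choice. How many of all genes lie on opposite sides in the 2 experiments was not computed. For Rasgrp2 the difference was -8.58 (adjusted p = 0.168), lower in KO TAM-MG and higher in KO tumours, where the groups overlapped in TPM. For Jam3 it was 7.39 (adjusted p = 0.176), higher in KO TAM-MG and lower in KO tumours. For Itgad it was -11.75 (adjusted p = 0.23), a fitted value that is no bound, because bulk WT and TAM-MG KO held no counts and the other groups held at most 31 counts per library.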

How the results depend on the processing

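No paired analysis was possible because the replicate numbers are mouse numbers and no number occurs in more than 1 group. The direction of Itgam, Itgal and Itgb2 in bulk tumours and of Itgav and Itgb5 in TAM-MG held under every alternative run, with Itgam in bulk between -3.92 and -1.97 (adjusted p from 4.44e-05 to 0.517), Itgav between 1.05 and 1.80 and Itgb5 between 0.56 and 1.17 (adjusted p from 0.000506 to 0.641). Whether any gene was called in bulk, with 0 by edgeR's quasi-likelihood test, depended on the test: 102 genes (1 member) with no filter on low counts, 383 (1 member) by the likelihood ratio test, 470 (2 members) by DESeq2, 1 by limma with either pseudocount, 62 (1 member) where every library had to hold 10 counts or more, and 2 without replicates 35 and 37, a setting chosen after seeing the data. With single libraries left out it was 0 to 8, the 8 without KO replicate 37. In TAM-MG, with 0 called, the likelihood ratio test called 245 genes and DESeq2 473 (1 member), and each leave-one-out fit called 0. TAM-MG against bulk called 11283 genes (7 members), 5828 (4 members) in WT groups only, 7066 in KO groups only, 7263 by limma and 7217 (4 members) among genes without shared exons, a setting added after seeing the data, in which Itgam, Itga4 and Itgav are not tested. The interaction called 48 genes, 8 with DESeq2's size factors, 76 with no filter, and 1 to 361 with single libraries left out. Members without overlap in TPM numbered 1 in bulk (1 to 5 with single libraries left out) and 3 in TAM-MG (3 to 9). The 9 arose without TAM-MG WT replicate 78, which leaves 1 WT library, so that groups separate easily and no conclusion is drawn from it. The same holds for the 5 without TAM-MG WT replicate 74. Without 1 KO library the TAM-MG number was 3 or 4. With all libraries, 10.1% of all genes were lower and 6.26% higher without overlap in bulk TPM. In TAM-MG these shares were 9.22% and 17.3%.

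Signs that turned in bulk were those of Itga6 by limma (0.1524 and 0.1531), Tln2 by limma (-0.3938), Itgb1 without replicates 35 and 37 (-0.1139), Itga3 (0.3071 there and 0.08787 at equal mean log2 CPM) and Itga9 (0.6992 there). With single libraries left out, Itga3 ran between -0.2912 and 0.3147, Itga9 between -1.415 and 0.3232 and Itgae between -1.376 and 0.1754. In TAM-MG, signs turned at equal mean log2 CPM for Itgam (-0.05143), Itgb3 (-0.3636), Lyn (-0.1128), Fn1 (-0.4436), Icam2 (-0.4613) and Ptprc (-0.2158), and by limma for Itga6 (0.04576 and 0.04731) and Icam2 (-0.1347 and -0.1683). With single libraries left out, Fn1 ran between -1.167 and 1.357, Icam2 between -0.8309 and 0.4306, Itga6 between -0.6403 and 1.019, Itgae between -5.094 and 9.619, Itgam between -0.1043 and 1.211, Itgb2 between -0.7057 and 0.06959, Itgb3 between -0.1619 and 0.5568, Itgb8 between -3.427 and 7.174, Lyn between -0.06324 and 0.935 and Ptprc between -0.008174 and 0.5961. In TAM-MG against bulk, Itgb1 was -0.3325 by library size and Itgb7 4.452 in KO groups only. With single libraries left out, Itgb1 ran between -0.002942 and 0.2287 and Itgb7 between -3.293 and 0.0003614, and the interaction of Itga6 ran between -0.3584 and 1.382. The cause was not tested.
Equal mean scaling put the share of lower genes among those at an unadjusted p under 0.05 at 42.6% in bulk, against 57.6% under TMM, and library size at 67.6%. Depth was lowest for Itgb3 and Itgb7, with at most 358 counts in a bulk library.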
